A study of Mus musculus with 10 samples.

Results

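Mouse embryonic stem (ES) cells with an extra chromosome 6 were compared with mouse ES cells with an extra chromosome 11. The first line, Ts6, carries 3 copies of chromosome 6 and was sampled at passages 9 and 18. The second, Ts11, carries 3 copies of chromosome 11 and was sampled at passages 8 and 11. These are 4 of the 10 arrays of the series, chosen by their sample titles, with 2 biological replicates per line. Per the labels, both lines are of strain 129 S7/SvEvBrd, and no parent line, sex or number of clones is given for them. Diploid male AB1 cells (WT, passages 18 and 20, 2 arrays) serve below only as a reference level. All cells were grown in serum on irradiated SNL76/7 fibroblasts, which were depleted by letting the harvested cells settle before total RNA was taken. Each line has its own extra chromosome, so chromosome 6 is compared as 3 copies in Ts6 against 2 in Ts11. Chromosome 11 is compared as 2 in Ts6 against 3 in Ts11, and every other autosome as 2 against 2. The numbers of X and Y chromosomes in the lines are not given, so an equal dose of X-linked genes cannot be assumed.

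A gain of 1 autosome raises the gene dose of a whole chromosome, and transcripts of the genes it carries tend to rise with it, though often by less than the dose. Genes elsewhere in the genome can differ as well, through the products of the gained genes, through a general response of aneuploid cells, or through differences between cell lines that arose in culture. In mouse ES cells, chromosome 6 carries the pluripotency genes Nanog and Dppa3 and the Hoxa cluster, and chromosome 11 carries Trp53, the Hoxb cluster and Stat3. Setting 1 trisomic line against another holds constant that both lines are trisomic, but not which chromosome is gained, the passage or the history of the line.

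Levels are log2 signals from which the 75th percentile of each array was taken away, so that a level of 0 is that percentile. A level depends on its probe and is not compared between genes. A difference is always the Ts6 mean minus the Ts11 mean on this log2 scale, with the standard error of the limma fit, and adjusted p-values are from limma with Benjamini-Hochberg adjustment over the 28192 genes tested. An adjusted p under 0.05 is called a difference. On the 4 arrays between 71.4% and 77.0% of the noncontrol spots were well above background. Ts6 filled column 2 and Ts11 column 4 of 1 slide, so that line and slide column cannot be told apart. All 8 fixed ES cell markers, among them Pou5f1, Sox2 and Nanog, were above background on all 4 arrays and none was called different. Of 14 fixed feeder fibroblast markers, 13 were tested and 11 were above background on all 4 arrays. Their signal, summed on the linear scale, was 39.0 and 45.7 in Ts6 and 52.9 and 46.6 in Ts11, and 1 of them, the collagen gene Col5a2, was called lower in Ts6, a call lost without any array but Ts6 replicate 2 (adjusted p up to 0.13). Col1a1, the main fibroblast collagen, was at 1.89 and 2.31 in Ts6 and 2.53 and 2.28 in Ts11 and was not called (adjusted p = 0.35). In a wider list of 32 tested genes of fibroblasts, 26 differences were below 0, with a median of -0.18, and Col5a2 was the only call. Of 11 markers of differentiated cells, 10 were tested, with summed signals of 5.42 and 4.26 in Ts6 and 3.35 and 3.55 in Ts11. Gata6 was called higher and Neurod1 lower in Ts6. The part of feeder or differentiated cells in the results below was not tested. In these bulk samples, fewer cells of a type and less RNA per cell cannot be told apart.

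Of 8 Y-linked genes tested, 3 that were above background in the male diploid cells were not so in either line. Eif2s3y, a translation factor subunit encoded on the Y chromosome, was at 0.84 and 0.70 in WT and at -8.18 and -8.14 in Ts6 and -8.78 and -8.21 in Ts11. Ddx3y and Uty were also not well above background on any of the 4 arrays of the lines. The probes of Sry, Zfy2 and Ube1y1 were above background in both lines, with Sry at -3.55 and -3.40 in Ts6, -3.47 and -3.69 in Ts11 and -3.57 and -3.14 in WT. None of the 8 was called different between Ts6 and Ts11 (limma, 0 also at an unadjusted p under 0.05).

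Between Ts6 and Ts11, 1067 genes were called higher and 984 lower in Ts6, which is 7.28% of the genes tested. At least 2-fold differences were called for 428 higher and 349 lower genes. Chromosome 6 held 220 of the higher and 21 of the lower genes, and chromosome 11 held 24 of the higher and 206 of the lower. The other chromosomes held 823 higher and 757 lower genes. These counts rest on all 4 arrays: without Ts6 replicate 1, 274 genes were called in all, without Ts6 replicate 2, 624, without Ts11 replicate 1, 876, and without Ts11 replicate 2, 629. In those fits the line left with 1 array is assumed to vary like the other groups. The authors' deposited series table, on another scaling, gave 888 higher and 1763 lower genes, a share of higher calls of 33.5% against 52.0% in the main scaling. In that table the median difference over all genes was -0.12 against -0.03.

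The genes of chromosome 6 were higher in Ts6 and those of chromosome 11 higher in Ts11, by similar amounts. Each chromosome's shift was the mean, over its genes, of the difference of an array from the mean of the 4 arrays, minus the same over the other autosomes. For the 1456 genes of chromosome 6 the shift was 0.11 and 0.10 on the Ts6 arrays and -0.10 and -0.11 on the Ts11 arrays. For the 1996 genes of chromosome 11 it was -0.11 and -0.11 in Ts6 and 0.10 and 0.12 in Ts11. The arrays of the lines did not overlap on either chromosome, and the difference between the lines was 0.21 (1.16-fold) for chromosome 6 and -0.22 (1.16-fold) for chromosome 11. These are 35.6% and 37.2% of the log2(3/2) of 0.58 that a transcript level proportional to copy number would give. The signals were used without background subtraction, and the part of this in the 2 shares was not tested. The other 17 autosomes lay between -0.05 (chromosome 12) and 0.05 (chromosome 7). With 2 arrays against 2, the exact two-sided permutation test gave p = 0.33 for each of the 2 chromosomes, the smallest it can give.

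**Figure D1:**
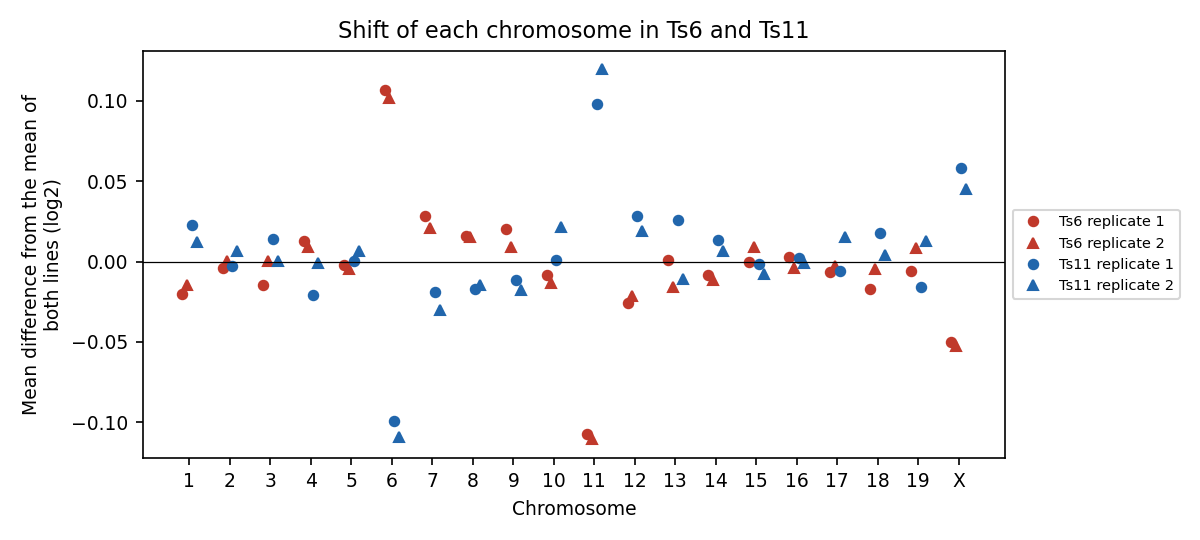
Shift of each chromosome (horizontal axis) on the 4 arrays, in log2 units (vertical axis), from the mean of both lines and relative to the autosomes other than 6 and 11. Circles are replicate 1 and triangles replicate 2; chromosomes 6 and 11 stand about 0.10 above and below 0 in opposite directions, and the X chromosome, at -0.05 in Ts6 and 0.05 in Ts11, is next.

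Set against the diploid cells, each line was shifted on its own extra chromosome and not on that of the other line. Relative to WT, chromosome 6 was shifted by 0.20 ± 0.004 in Ts6 and by -0.009 ± 0.007 in Ts11 (mean ± SD, n = 2 arrays). Chromosome 11 was shifted by 0.003 ± 0.002 in Ts6 and by 0.22 ± 0.02 in Ts11. Both comparisons use the same WT arrays.

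The shift was spread along the length of both chromosomes. All 13 windows of 10 Mb on chromosome 11 had a median difference below 0, from -0.37 (30 to 40 Mb) to -0.17 (60 to 70 Mb). On chromosome 6, 13 of 15 windows had a median above 0, with the highest of 0.32 at 110 to 120 Mb. The exceptions were the first window, with a median of -0.002 over 46 genes, and 60 to 70 Mb, with -0.11 over 67 genes of which 2 were called higher and 2 lower. The 221 windows of the other autosomes with at least 20 genes had medians between -0.28 and 0.13. In 63.0% of the chromosome 6 genes Ts6 was above Ts11, against 47.4% of the genes outside both chromosomes, and in 76.1% of the chromosome 11 genes Ts6 was below Ts11, against 52.6%. Few genes reached the copy number ratio: 19.6% of chromosome 6 genes exceeded log2(3/2) and 13.6% of chromosome 11 genes were below its negative, against 6.68% and 7.14% of the genes outside. Both Ts6 arrays lay above both Ts11 arrays for 48.7% of chromosome 6 genes and below them for 19.8%. On chromosome 11 these shares were 10.5% and 54%, and outside both chromosomes 27% and 30.4%, with 27% and 31.5% over all genes.

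**Figure D2:**
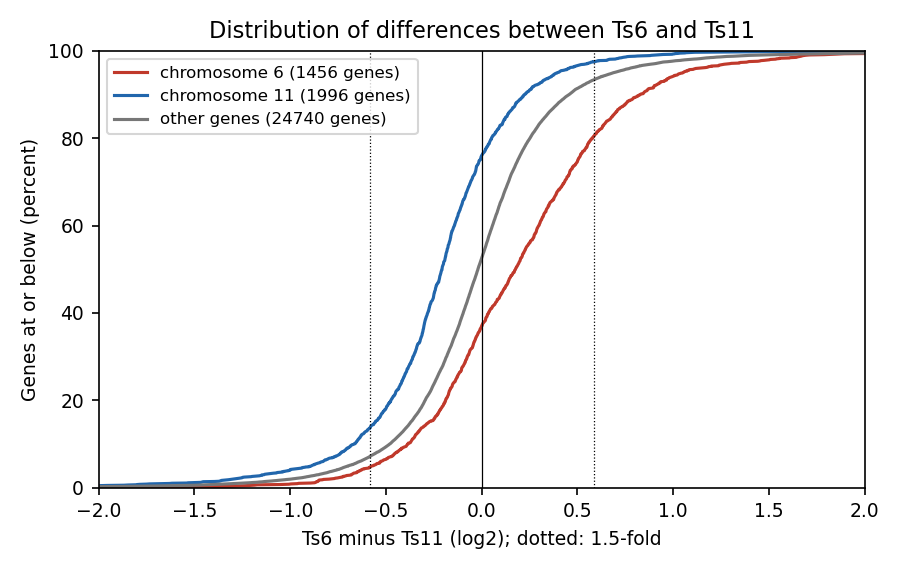
Cumulative share of genes (vertical axis, percent) by their difference Ts6 minus Ts11 (horizontal axis, log2 units) for chromosome 6, chromosome 11 and the other genes; dotted lines mark 1.5-fold. The whole curve of chromosome 6 (median 0.18) lies to the right and that of chromosome 11 (median -0.21) to the left of the other genes (median -0.02).

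Genes of different brightness and class were shifted in the same direction. On chromosome 6 the difference between the lines was 0.16 in the dimmest tertile of genes, 0.29 in the middle and 0.19 in the brightest, and on chromosome 11 it was -0.21, -0.24 and -0.21. The 240 long intergenic noncoding RNAs (lincRNAs) of chromosome 6 differed by 0.16 and its 1216 other genes by 0.22. On chromosome 11 the 174 lincRNAs differed by -0.20 and the 1822 other genes by -0.22. The SD between the arrays of a line was at most 0.04 for each of these values.

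On chromosome 6, 15.1% of genes were called higher in Ts6, against 3.78% of all genes tested, and 1.44% were called lower. Of the 220 called higher, 168 lay farther from WT in Ts6 than in Ts11, the line with 2 copies. Among the 6 with the highest differences of those with a symbol and above background on all 4 arrays was Tead4, a transcription factor of the Hippo pathway that specifies trophectoderm. Its level was 0.08 and -0.10 in Ts6, -1.52 and -1.79 in Ts11 and -1.40 and -1.21 in WT. Both Ts6 arrays stood above those of Ts11 and WT, and the difference was 1.64 ± 0.22 (adjusted p = 0.0081). Sema4f, a transmembrane semaphorin, was at -1.53 and -1.75 in Ts6 and at -3.75 and -3.24 in Ts11, a difference of 1.86 ± 0.19 (adjusted p = 0.0035). For the vomeronasal receptor Vmn1r53 the levels were -3.39 and -3.75 against -5.34 and -5.38. Slc25a18, a mitochondrial glutamate carrier, was at -2.60 and -3.07 in Ts6 and -4.59 and -4.50 in Ts11, and A2m, a secreted protease inhibitor, at -1.26 and -2.05 against -3.25 and -3.39. Tfec, a transcription factor of the MiT family, differed by 1.67 ± 0.25. The folds of these 6 genes ran from 3.13 to 3.62, above the ratio of the copies. Without Ts6 replicate 1, 2 of these 6 calls remained (Sema4f and Vmn1r53, which remained without each of the arrays), without Ts6 replicate 2, 5, without Ts11 replicate 1, 4, and without Ts11 replicate 2, 3.

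A few genes ran against the extra copy. On chromosome 6, among called genes with a symbol and above background on all 4 arrays, the lowest differences were those of Crhr2, a receptor of the urocortin peptides (-1.61 and -1.33 in Ts6, -0.61 and 0.01 in Ts11), Slc6a13, a GABA transporter (-2.0 and -2.34 against -1.12 and -1.10), and Cpa1, carboxypeptidase A1 (-4.18 and -4.36 against -3.50 and -3.30). Their differences were -1.17 ± 0.22, -1.06 ± 0.14 and -0.87 ± 0.17. Of these 3, only Slc6a13 was called without each of the 4 arrays, and without Ts6 replicate 1 it was the only one left. On chromosome 11, 24 genes (1.2%) were higher in Ts6. Pyy, the gut peptide YY, was at -1.5 and -2.74 in Ts6 and -3.94 and -4.11 in Ts11, a difference of 1.91 ± 0.37. Dnah2, a dynein of motile cilia, was at -2.44 and -2.37 against -3.73 and -3.57, and its call remained without each array. The call of Olfr1390, an olfactory receptor, at -4.38 and -4.58 against -5.37 and -5.82, was lost without any 1 of the arrays, with adjusted p up to 0.23. Pyy was called without Ts6 replicate 2 but not without the other arrays.

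On chromosome 11, 10.3% of genes were called lower in Ts6, against 3.49% of all genes tested, and 159 of these 206 genes lay farther from WT in Ts11. Stc2, the secreted glycoprotein stanniocalcin 2, was at -0.13 and -0.17 in Ts6, 1.64 and 1.76 in Ts11 and 0.66 and 0.12 in WT. Both Ts11 arrays were above those of Ts6 and WT, and the difference was -1.85 ± 0.23 (3.6-fold, adjusted p = 0.0069). Klhl10, a ubiquitin ligase adaptor of spermatids, was at -2.14 and -2.46 in Ts6 and -0.79 and -0.35 in Ts11, with WT at -2.40 and -2.37. Its difference was -1.73 ± 0.19. Zfp750, an epidermal transcription factor, differed by -1.45 ± 0.27, Myh13, a myosin heavy chain, by -1.5 ± 0.26 and Aspa, the aspartoacylase of myelinating cells, by -1.80 ± 0.37. Grb10, an imprinted adaptor of the insulin receptor, was at -3.6 and -3.47 in Ts6 and -2.27 and -1.73 in Ts11, and both lines were below WT at -1.37 and -1.34. The difference of Grb10 was -1.53 ± 0.18 (adjusted p = 0.0055). Of these 6 calls, 1 remained without Ts6 replicate 1, 3 without Ts6 replicate 2, 4 without Ts11 replicate 1 and 3 without Ts11 replicate 2. Klhl10 was called in each of these fits.

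**Figure D3:**
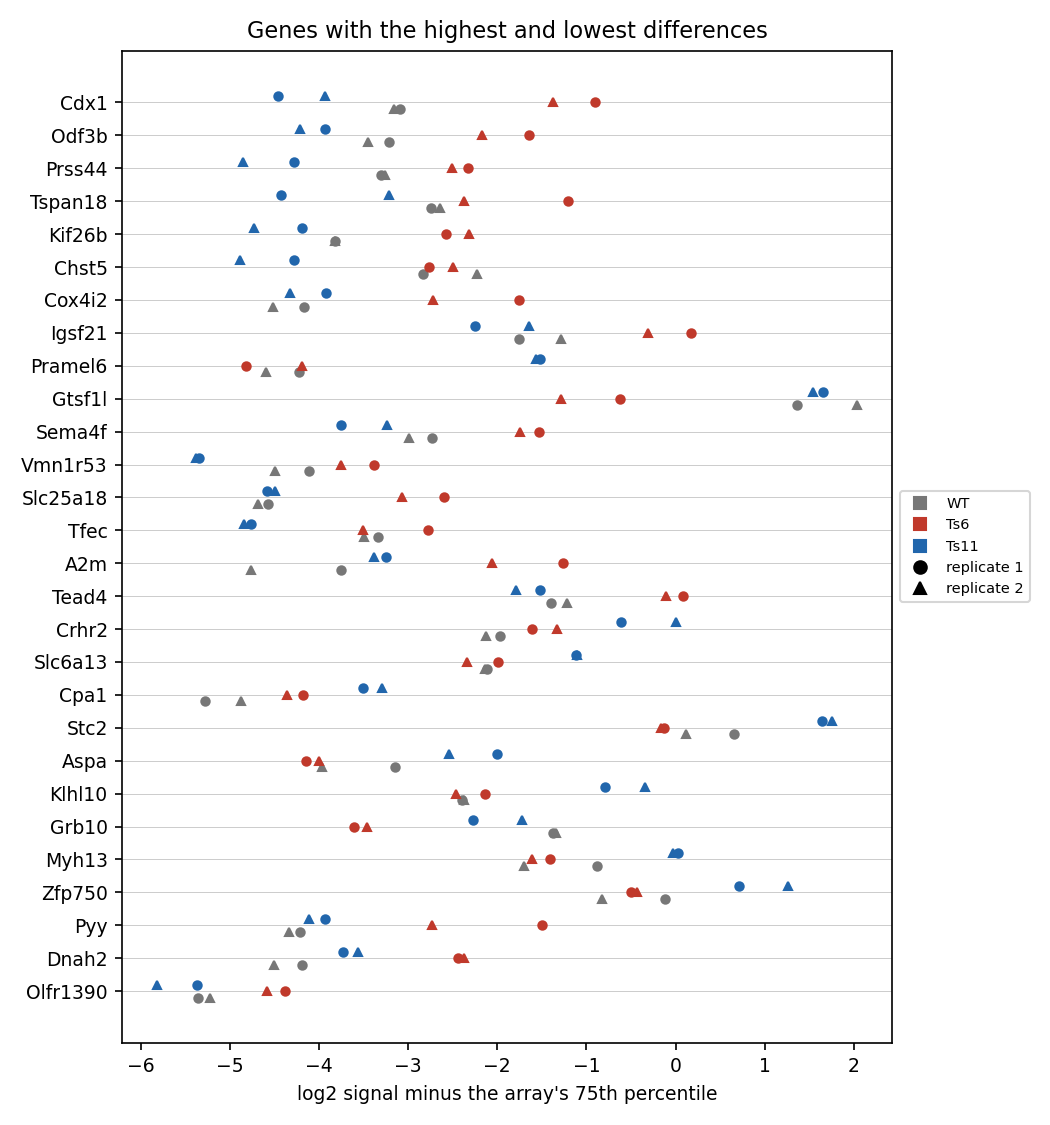
Level of each named gene (vertical axis) on the arrays of WT, Ts6 and Ts11 (horizontal axis, log2 signal relative to the 75th percentile), from the genes outside chromosomes 6 and 11 (Cdx1 to Gtsf1l, without the X-linked families) to those of chromosome 6 (Sema4f to Cpa1) and chromosome 11 (Stc2 to Olfr1390). In each gene both Ts6 arrays lie on 1 side of both Ts11 arrays, which the choice of genes requires; WT lies near Ts11 for Slc25a18 and near Ts6 for Klhl10 and Slc6a13.

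Outside chromosomes 6 and 11, 6.39% of 24740 genes were called, 3.33% higher and 3.06% lower in Ts6. Among those with a symbol and above background on all 4 arrays, the lowest differences belonged to X-linked genes of the Xlr family, whose members encode nuclear proteins related to the synaptonemal complex protein Sycp3 and are expressed mainly in lymphoid and germ cells. Rhox homeobox genes and Magea genes, X-linked clusters expressed mainly in germ cells and placenta, were then looked at in full; this choice was made after their values were seen, so their counts are a description. All 8 Xlr3, Xlr4 and Xlr5 genes, between positions 70319816 and 71979652 of the X chromosome (mm9), were called lower in Ts6, with a median difference of -2.77. Of 22 Rhox symbols on the array 17 passed the filter on dim probes and 10 were called lower, and of 5 Magea genes 4 were called lower. On the whole X chromosome 7.58% of 1122 genes were called lower and 3.03% higher, and without these families 5.77% and 3.11%.

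The probes are printed here because the members of these families are near copies of each other, so that a probe for 1 gene may take up transcripts of another. The probes of Xlr3b, Xlr4a and Xlr4d-ps, each of 60 bases, share a run of 25 bases, set in capitals.
Xlr3b: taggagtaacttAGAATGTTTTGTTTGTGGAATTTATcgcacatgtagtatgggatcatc
Xlr4a: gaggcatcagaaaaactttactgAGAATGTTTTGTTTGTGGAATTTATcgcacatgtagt
Xlr4d-ps: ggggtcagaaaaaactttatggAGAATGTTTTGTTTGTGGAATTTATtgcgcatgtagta
The other Xlr probes share no run of 20 bases with each other or with these.
Xlr3a: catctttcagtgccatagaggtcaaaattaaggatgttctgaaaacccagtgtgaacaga
Xlr4b: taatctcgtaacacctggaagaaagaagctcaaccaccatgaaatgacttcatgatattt
Xlr5a: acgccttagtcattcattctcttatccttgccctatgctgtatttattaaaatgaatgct
Xlr5b: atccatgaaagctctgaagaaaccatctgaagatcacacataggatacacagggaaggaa
Xlr5c: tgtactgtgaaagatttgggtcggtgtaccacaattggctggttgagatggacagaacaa
The probes of Rhox4a and Rhox4g differ at 2 bases and those of Magea5 and Magea8 at 4, in capitals.
Rhox4a: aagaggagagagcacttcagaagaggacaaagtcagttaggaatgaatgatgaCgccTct
Rhox4g: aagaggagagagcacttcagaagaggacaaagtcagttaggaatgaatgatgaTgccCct
Magea5: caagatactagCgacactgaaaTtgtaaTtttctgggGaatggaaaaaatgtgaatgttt
Magea8: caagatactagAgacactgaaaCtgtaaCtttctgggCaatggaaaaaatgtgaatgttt
Of the pairs of probes within a family, 3 of 28 in Xlr shared a run of at least 20 bases. In Rhox it was 1 of 136 and in Magea 1 of 10. The probes printed with capitals are not independent measurements. A comparison of probes cannot show whether the others are, since a probe may match a transcript of another gene at a different place. This was not tested.

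Xlr3a was at -2.22 and -2.07 in Ts6, at 1.10 and 1.00 in Ts11 and at -2.0 and -2.23 in WT. Ts6 and WT overlapped, and Ts11 was 9.15-fold above Ts6, with a difference of -3.19 ± 0.17 (adjusted p = 4e-04). Xlr3b was at -0.94 and -0.94 in Ts6, 2.11 and 2.08 in Ts11 and -1.12 and -1.04 in WT. Xlr4a was at -1.91 and -2.02, 1.01 and 1.00, and -2.08 and -1.86 in the same order. For Xlr4b and Xlr4d-ps the differences were -2.78 ± 0.21 and -2.75 ± 0.19. The Xlr5 genes behaved alike except that Ts6 was also below WT: Xlr5c was at -1.0 and -0.96 in Ts6, 1.48 and 1.49 in Ts11 and -0.54 and -0.41 in WT. All 8 calls remained without each of the 4 arrays.

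Within the Rhox cluster, between positions 34753955 and 35476295, the calls were the 3 Rhox2, the 3 Rhox4 and 3 of 4 Rhox3 genes tested, with Rhox13. Rhox4a was at -2.01 and -2.43 in Ts6 and 0.24 and 0.35 in Ts11, a difference of -2.52 ± 0.25 (adjusted p = 0.0032). Rhox2c, at -0.17 and 0.18 against 1.81 and 1.67, and Rhox2e, at -0.52 and -0.29 against 1.24 and 1.14, differed by -1.73 ± 0.13 and -1.60 ± 0.13. The differences of Rhox2h, Rhox4e and Rhox4g were -1.21 ± 0.12, -1.61 ± 0.18 and -1.49 ± 0.16. Rhox3a (not well above background in Ts6), Rhox3e, Rhox3h and Rhox13 had differences of -1.59, -0.93, -0.89 and -0.73. Rhox8 was at 3.82 and 3.67 in Ts6 and 3.95 and 3.84 in Ts11 (adjusted p = 0.62). Rhox6, Rhox9 and Rhox10 had differences above 0, of 0.39, 0.14 and 0.50, and were not called, nor were Rhox1, Rhox3f and Rhox7a. Rhox2c, Rhox2e, Rhox2h, Rhox4a, Rhox4e and Rhox4g were called without each of the arrays; 7, 7, 8 and 7 of the 10 calls remained without Ts6 replicates 1 and 2 and Ts11 replicates 1 and 2.

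The Magea genes measured lay at positions 151358555 to 151523228. Magea3 was at -4.69 and -4.04 in Ts6, -2.46 and -2.25 in Ts11 and -4.66 and -4.17 in WT, a difference of -2.01 ± 0.24. Magea8 differed by -2.09 ± 0.29, Magea1 by -1.80 ± 0.24 and Magea5, above background on 1 of the Ts6 arrays, by -2.76 ± 0.41. Magea6 was at -3.90 and -4.25 in Ts6 and -4.07 and -4.36 in Ts11 and was not called. Of the 4 calls, 1 remained without Ts6 replicate 1 (Magea3), all 4 without Ts6 replicate 2 or Ts11 replicate 1, and 2 without Ts11 replicate 2.

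**Figure D4:**
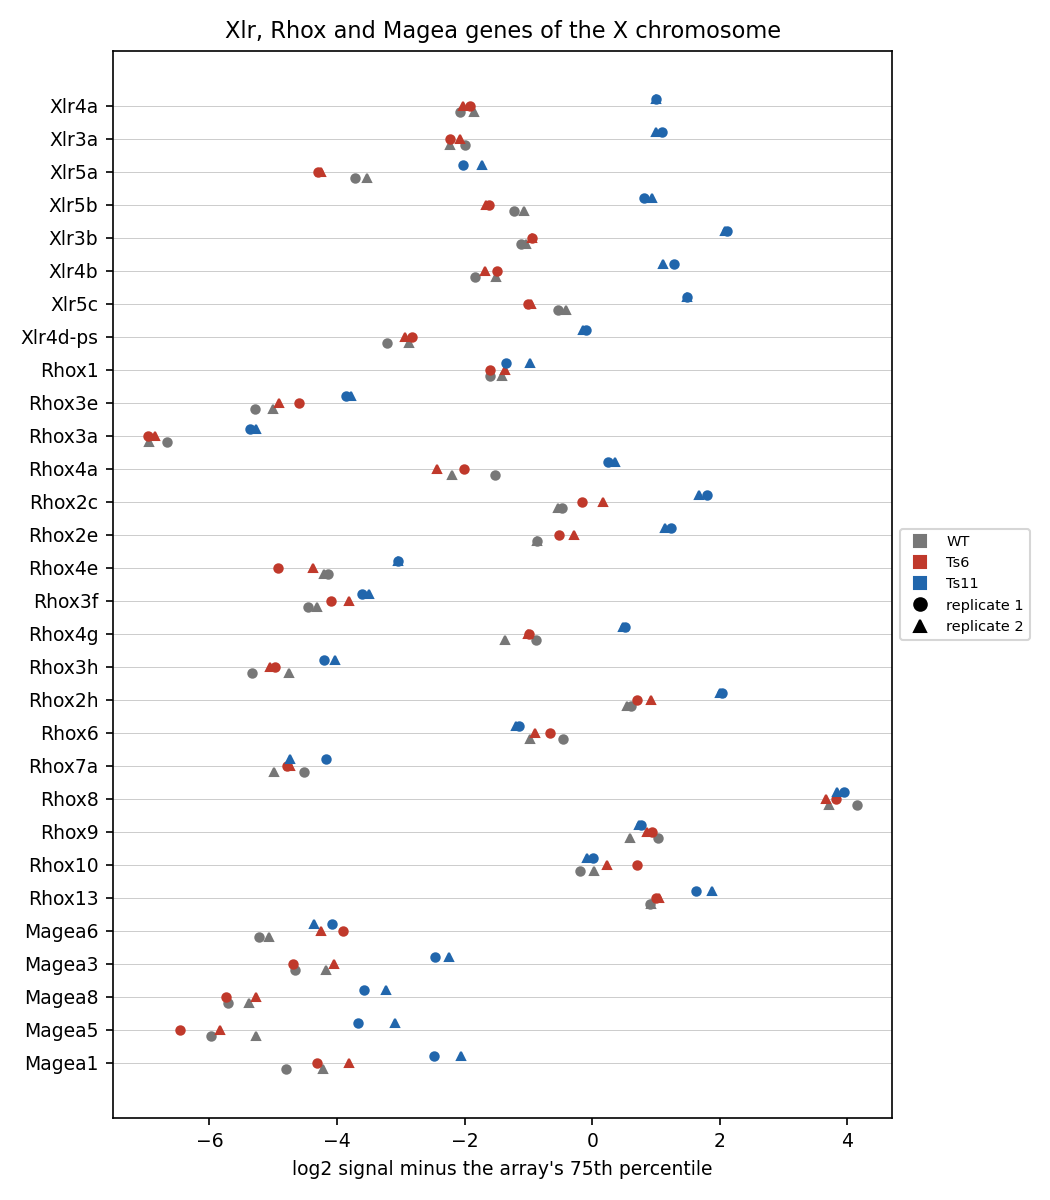
Level of the Xlr, Rhox and Magea genes (vertical axis) on the arrays of WT, Ts6 and Ts11 (horizontal axis, log2 signal relative to the 75th percentile). Within each family the genes are in the order of the mm9 positions of their probes on the X chromosome, which can differ from the order of the genes. The Ts11 arrays stand to the right of Ts6 and WT for all 8 Xlr genes, for 13 of 17 Rhox genes to the right of Ts6, and for 4 of 5 Magea genes. Over all genes both Ts11 arrays lay above both Ts6 arrays for 31.5%. Of the 17 Rhox genes, 10 were called lower in Ts6.

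The promoters of these genes were read from the RefSeq table of mouse promoters (build GRCm38.p6, from 250 bases before to 50 after the start of the gene), which held 26 of the 30 genes. The letters CCAAT, on either strand and the only motif searched, were found in 37.4% of all 32851 windows. They were found in 6 of 8 Xlr, 6 of 13 Rhox and 3 of 5 Magea windows. Xlr5c and Xlr4d-ps, also called lower in Ts6, had no match, and a part of the motif in the differences was not tested. The windows of the 3 Xlr genes with the lowest differences are printed with the matches in capitals.
Xlr3a, chrX:73097046-73097345, minus strand: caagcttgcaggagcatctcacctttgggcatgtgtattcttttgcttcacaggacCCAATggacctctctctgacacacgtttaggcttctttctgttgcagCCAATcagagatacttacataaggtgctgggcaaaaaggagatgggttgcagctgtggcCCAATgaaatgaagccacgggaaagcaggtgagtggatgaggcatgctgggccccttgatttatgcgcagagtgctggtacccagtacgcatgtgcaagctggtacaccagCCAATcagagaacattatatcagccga
Xlr3b, chrX:73191929-73192228, plus strand: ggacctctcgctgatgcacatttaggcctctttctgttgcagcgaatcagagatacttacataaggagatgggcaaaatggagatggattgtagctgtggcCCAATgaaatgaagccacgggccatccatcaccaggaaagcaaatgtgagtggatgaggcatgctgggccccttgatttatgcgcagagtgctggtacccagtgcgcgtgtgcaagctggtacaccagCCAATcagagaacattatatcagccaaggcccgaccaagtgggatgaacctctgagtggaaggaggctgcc
Xlr4a, chrX:73082458-73082757, minus strand: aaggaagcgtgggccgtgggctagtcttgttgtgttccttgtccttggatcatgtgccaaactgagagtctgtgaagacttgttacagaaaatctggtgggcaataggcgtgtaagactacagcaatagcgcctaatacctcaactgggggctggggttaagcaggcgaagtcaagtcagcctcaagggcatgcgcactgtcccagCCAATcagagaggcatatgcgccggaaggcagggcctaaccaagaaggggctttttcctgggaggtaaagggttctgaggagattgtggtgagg
These windows hold 4, 2 and 1 matches. A match is a string of letters and not a measured binding site.

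Among called autosomal genes above background on all 4 arrays, outside chromosomes 6 and 11 and with a symbol, the lowest differences were those of Pramel6 and Gtsf1l. Pramel6, a Prame family gene of naive pluripotent cells, was at -4.82 and -4.19 in Ts6, -1.53 and -1.56 in Ts11 and -4.23 and -4.60 in WT. Its difference was -2.96 ± 0.43 (adjusted p = 0.011), and the call was lost without Ts6 replicate 1 or Ts11 replicate 2, with adjusted p up to 0.085. Gtsf1l, a relative of the piRNA pathway gene Gtsf1, was at -0.62 and -1.28 in Ts6, 1.65 and 1.54 in Ts11 and 1.36 and 2.04 in WT. Here Ts11 and WT overlapped and Ts6 was low, with a difference of -2.55 ± 0.27 that was called without each array.

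Cdx1, a homeobox gene that responds to Wnt and retinoic acid in the primitive streak, had the highest difference outside both chromosomes among called genes with a symbol that were above background on all 4 arrays. It was at -0.91 and -1.38 in Ts6, -4.47 and -3.93 in Ts11 and -3.10 and -3.15 in WT. Ts6 was above and Ts11 below the diploid level, and the difference was 3.06 ± 0.21 (8.32-fold, adjusted p = 0.0012). Kif26b, a kinesin of kidney development, was at -2.57 and -2.31 in Ts6 and -4.19 and -4.73 in Ts11, a difference of 2.02 ± 0.24. Odf3b, a sperm tail protein gene, differed by 2.16 ± 0.25 and Prss44, a testis serine protease, by 2.15 ± 0.23; the second probe of Prss44 had the opposite sign. These 4 genes were called without each array. Igsf21, a synaptic adhesion protein, was at 0.17 and -0.31 in Ts6 and -2.25 and -1.65 in Ts11. Cox4i2, a hypoxia-responsive subunit of cytochrome c oxidase, was at -1.76 and -2.72 against -3.92 and -4.32, and Chst5, a carbohydrate sulfotransferase, at -2.76 and -2.50 against -4.28 and -4.89. Tspan18, with 1 of its 4 probes of opposite sign, differed by 2.03 ± 0.46. Of the calls of these 8 genes, 4 remained without Ts6 replicate 1, 7 without Ts6 replicate 2, 5 without Ts11 replicate 1 and 6 without Ts11 replicate 2.

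For genes that were above background on both arrays of 1 line and on neither of the other, the fold is a bound. It is taken against the lowest signal called above background on each array of the dim line, or the probe's own signal where that is higher. Ces2e, a carboxylesterase, was lower in Ts6 by at least 5.13-fold, with measured levels of -6.46 and -6.35 in Ts6 and -3.62 and -3.47 in Ts11. Nell2, a secreted neural glycoprotein, was lower by at least 3.97-fold, Vat1l by at least 3.33-fold and Lrrc55 by at least 3.12-fold. In the other direction Ros1, a receptor tyrosine kinase, was higher in Ts6 by at least 7.19-fold, Ccdc183 by at least 5.39-fold, a lincRNA probe named XIST by at least 5.34-fold and Abca16, a lipid transporter, by at least 5.25-fold. The calls of Ces2e, Nell2, Vat1l, Ros1 and Abca16 remained without each array. Lrrc55 was called only without Ts11 replicate 2, and Ccdc183 and XIST only without Ts6 replicate 1, so that their adjusted p reached 0.12, 0.10 and 0.11.

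The probes of the 4 genes with the highest bounds all sat in the right part of the array, in columns 103 to 162. Of the 175 genes above background on both Ts6 arrays and on neither Ts11 array, 87.4% lay in its right part, past column 82, against 49.9% of all genes tested and 54.1% of the 388 genes with the opposite pattern. Among genes above background on all 4 arrays, 54.3% of the higher and 56.3% of the lower calls were in the right part. The part of the array position in these bounds was not tested. The XIST-named signal was that of 1 probe: the other 4 probes of that name were not above background on any of the 4 arrays. Xist itself, the RNA that silences an X chromosome, was measured by another probe at 0.21 and 0.20 in Ts6, 0.97 and 0.65 in Ts11 and -0.81 and 0.04 in WT (difference -0.60 ± 0.29, adjusted p = 0.23). A second probe named Xist was not well above background on any of these 4 arrays, at -8.15 and -8.01 in Ts6 and -8.68 and -8.01 in Ts11.

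The core pluripotency genes did not pass the test. Pou5f1 was at 4.71 and 4.66 in Ts6 and 4.55 and 4.48 in Ts11, Sox2 at 3.03 and 2.89 against 2.83 and 2.99, and Klf4 at 2.90 and 2.84 against 2.81 and 3.1. Nanog and Dppa3 have 3 copies in Ts6. Nanog was at 4.87 and 4.84 in Ts6 and 4.89 and 4.88 in Ts11, a difference of -0.03 ± 0.11. Dppa3, a maternal factor that guards DNA methylation, was at 0.58 and 0.07 in Ts6 and 1.02 and -0.02 in Ts11, with WT at -2.68 and -2.76. Both lines were above WT and overlapped each other. Of 8 genes tested in the block around Nanog on chromosome 6, 1 was called higher: Apobec1, a cytidine deaminase, at 1.40 and 1.36 against 0.95 and 0.94. Its call was lost without any 1 array (adjusted p up to 0.22). In the list of naive pluripotency genes 1 of 33 was called: Pecam1, an adhesion molecule of chromosome 11, at 0.36 and 0.45 in Ts6 and 1.39 and 2.07 in Ts11. That call remained without Ts11 replicate 1 and was lost without each of the other arrays (adjusted p up to 0.19). The median of the list was -0.03, as over all genes.

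Genes of the 2-cell-like state, a rare and transient state of ES cells that expresses genes of the 2-cell embryo, included many that were lower in Ts6. Of 26 tested, 12 were called lower and none higher, against 3.49% called lower among all genes, and 25 of 26 differences were below 0 (median -0.68). Zscan4c, a telomere maintenance factor of that state, was at 0.54 and 0.75 in Ts6, 1.32 and 1.44 in Ts11 and 2.67 and 2.51 in WT. Both lines were below WT and Ts6 was the lowest, with a difference of -0.74 ± 0.13 (adjusted p = 0.023). Tmem92, on chromosome 11, was at -2.46 and -2.46 in Ts6 and -1.52 and -0.90 in Ts11, and Arg2, a mitochondrial arginase, at -3.39 and -3.19 against -2.57 and -1.95. Tcstv1 differed by -1.09 ± 0.26, Gm428 by -0.96 ± 0.21 and Pramel17 by -0.96 ± 0.17. Many of these genes are near-identical copies, so that their probes may share transcripts. Without Ts11 replicate 1, 10 of the 12 calls remained, without Ts11 replicate 2, 1, and without either Ts6 array none.

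**Figure D5:**
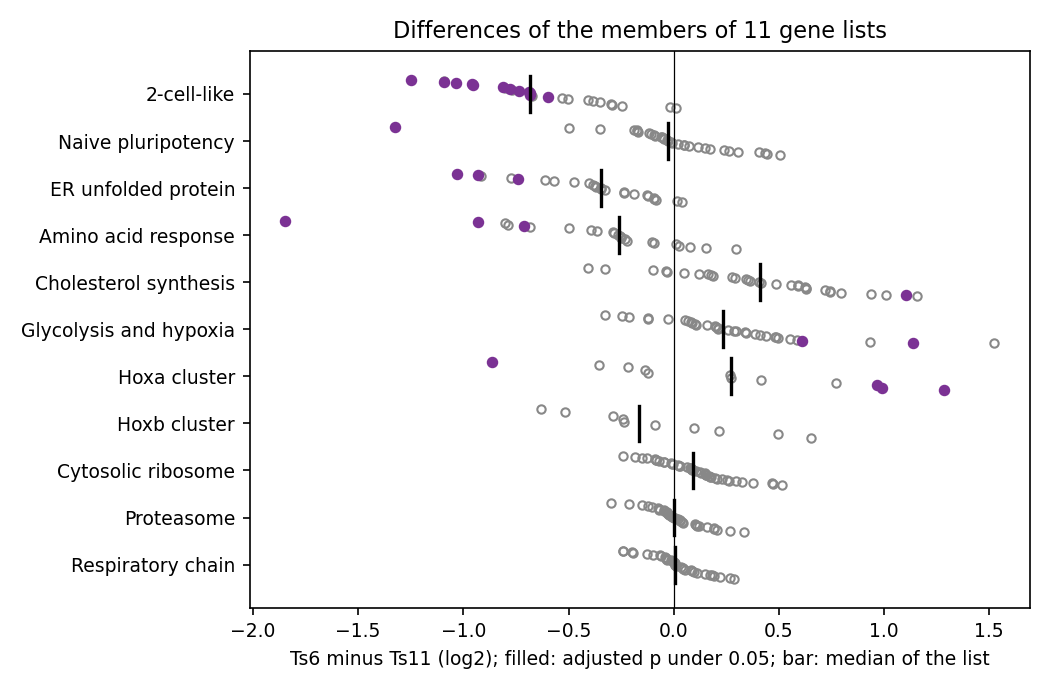
Difference Ts6 minus Ts11 (horizontal axis, log2 units) of each tested member of 11 gene lists (vertical axis); filled points have an adjusted p under 0.05 and bars are list medians. The 2-cell-like genes have the lowest median (-0.68) and the cholesterol genes the highest (0.41), and the ribosome, proteasome and respiratory chain lists lie close to 0.

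Lineage genes showed scattered differences, to be read against the 3.78% of all genes called higher and the 3.49% called lower. In the list of primitive streak and mesoderm genes, of 22 tested, 3 were called higher, among them Cdx1 and Nkx2-5, and Evx1 and Mesp1 were called lower in Ts6. Mesp1 was not well above background on either Ts6 array or on 1 of the Ts11 arrays, at -7.20 and -7.01 in Ts6 and -6.40 and -6.37 in Ts11. Nkx2-5, a cardiac homeobox gene, was at -3.84 and -3.75 in Ts6 and -4.59 and -4.63 in Ts11. Brachyury (T) was at -2.56 and -3.12 against -3.07 and -3.24 and was not called. Of 28 endoderm genes 1 was called, Gata6, a regulator of primitive endoderm, at 1.09 and 0.55 against -0.17 and -0.05 (difference 0.93 ± 0.22, adjusted p = 0.043). Gata4 differed by 0.36 ± 0.17 (adjusted p = 0.24). Of 18 neuroectoderm genes 2 were called lower: Neurod1, at -2.49 and -2.33 in Ts6 and -1.22 and -1.28 in Ts11, and Nes. Of 23 primed epiblast genes 2 were called lower, Nefl and Grhl2, while Otx2 and Fgf5 were not called, with differences of 0.28 ± 0.37 and 0.59 ± 0.62. Of 23 trophectoderm genes, Tead4 and Tpbpa were called higher and Gata3 lower. Tpbpa, a marker of the spongiotrophoblast, was above background in Ts6 and not in Ts11, by at least 2.31-fold. Its probe sat in column 119, in the right part of the array, where 87.4% of the genes with this pattern lay. The part of the array position in this call was not tested. Cdx2, the trophectoderm regulator, was at -4.09 and -4.47 in Ts6 and -4.03 and -4.48 in Ts11. Among all these lineage calls Cdx1 and Tpbpa remained without each array. Neurod1, Tead4 and Nefl were lost without Ts6 replicate 1 alone (adjusted p 0.069, 0.068 and 0.059), and the other calls were lost without at least 1 array, with adjusted p up to 0.25.

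Among signalling targets a few genes were called in each direction, where 7.28% of all genes were called. Of 19 Wnt targets, Cdx1 was called higher, and Axin2, Tnfrsf19 and Znrf3 lower in Ts6. Axin2 and Znrf3 lie on chromosome 11, of whose genes 10.3% were lower. Axin2, a feedback inhibitor of Wnt signalling, was at -4.45 and -4.66 in Ts6, -3.64 and -3.39 in Ts11 and -3.68 and -3.58 in WT. The Ts11 level overlapped WT and Ts6 was lower, with a difference of -1.04 ± 0.14 (adjusted p = 0.0099). Lefty1, the Nodal inhibitor, was at 2.46 and 2.55 against 2.29 and 1.65 and was not called; of 16 Nodal targets 2 were called higher, among them the receptor gene Acvr2b (0.56 ± 0.10). Of 21 genes of ERK feedback, Etv4 (0.60 ± 0.12), an ETS factor whose gene lies on chromosome 11, and Spred1 (0.51 ± 0.10) were higher and Etv5 (-0.52 ± 0.11) lower. Of 20 targets of LIF and Stat3, 1 was called, Pramel6; Socs3, on chromosome 11, was at 4.03 and 3.82 in Ts6 and 3.44 and 3.6 in Ts11 (adjusted p = 0.083). Of these calls Cdx1 alone remained without each array. Without Ts6 replicate 1, 2 of the 4 Wnt calls remained, and none of the Nodal or ERK calls; the adjusted p reached 0.054 for Axin2 and 0.18 for Tnfrsf19 and Spred1.

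The calls among stress genes were in the lower direction, in which 3.49% of all genes and 10.3% of chromosome 11 genes were called. Of 25 genes of the unfolded protein response of the endoplasmic reticulum, 3 were called lower and 23 differences were below 0, with a median of -0.35. Herpud1, which works in the removal of misfolded proteins from the endoplasmic reticulum, was at 1.15 and 1.40 in Ts6, 2.34 and 2.27 in Ts11 and 0.57 and 0.42 in WT. Both lines were above WT and Ts11 was the highest (difference -1.03 ± 0.12, adjusted p = 0.0057). Ddit3, the transcription factor CHOP, was at 1.30 and 1.55 in Ts6 and 2.36 and 2.35 in Ts11, and the chaperone partner Dnajb9 differed by -0.74 ± 0.14. Of 24 genes of the amino acid response, Stc2 (on chromosome 11), Ddit3 and Cebpb were called lower. Their regulator Atf4 was not, at 3.33 and 3.32 against 3.47 and 3.37. Of 24 p53 targets, 2 were called lower: Ccng1, on chromosome 11, and Perp. Trp53 itself, with 3 copies in Ts11, was at 4.10 and 4.11 in Ts6 and 4.34 and 4.14 in Ts11 (-0.13 ± 0.11, adjusted p = 0.50), and Cdkn1a was not called (-0.60 ± 0.36). Of 27 chaperone genes 1 was called, Bag3 (-0.47 ± 0.10), while 19 of the 27 differences were above 0, with a median of 0.10. Of 31 lysosome and autophagy genes Gaa, Becn1 and Sqstm1 were lower, all 3 on chromosome 11. Outside chromosomes 6 and 11, 3.06% of genes were called lower. There the lower calls were 3 of 20 genes in the unfolded protein list and 2 of 21 in the amino acid list. They were 1 of 21 in the p53 list, 1 of 24 in the chaperone list and 0 of 25 in the lysosome list. Herpud1 remained without each array. The call of Stc2 was lost without Ts6 replicate 1 (adjusted p 0.055), and the others without any 1 array, with adjusted p up to 0.24.

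Few metabolic genes were called, where 3.78% of all genes were called higher and 7.28% in either direction. Of 32 genes of cholesterol and fatty acid synthesis 27 differences were above 0 (median 0.41), but 1 was called: Srebf2, the transcription factor of sterol synthesis, at 0.40 and 0.02 in Ts6, -1.06 and -0.72 in Ts11 and -0.17 and 0.28 in WT. Ts6 and WT overlapped and Ts11 was low. Of 34 glycolysis and hypoxia genes 28 differences were above 0 (median 0.24) and 2 were called higher: Pdk1, which restrains the entry of pyruvate into mitochondria, at 2.21 and 1.77 in Ts6 and 0.93 and 0.77 in Ts11, and the glycolytic enzyme Aldoa (0.61 ± 0.14). The call of Aldoa was lost without any 1 array. That of Srebf2 remained only without Ts6 replicate 2, and that of Pdk1 only without Ts6 replicate 2 or Ts11 replicate 1. None of 33 proteasome, 43 cytosolic ribosome, 35 respiratory chain and 30 cell junction genes was called (limma; 1, 3, 0 and 8 had an unadjusted p under 0.05), and the medians of these lists lay between -0.0008 and 0.09. Of 37 DNA replication genes, Rpa3, on chromosome 6, was higher and Cdc6, on chromosome 11, lower, and of 32 mitosis genes 1 was called, the checkpoint gene Mad2l1, on chromosome 6 (0.67 ± 0.14). These 3 calls were lost without any 1 array. Of 33 interferon and antigen presentation genes, Psmb9 and Usp18 were called higher. The call of Psmb9 remained only without Ts6 replicate 2, and that of Usp18 was lost without any 1 array.

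Some imprinted and germline genes were called, where 7.28% of all genes were. Of 44 imprinted genes, 6 were called lower and 1 higher in Ts6. On chromosome 11 these were Grb10, Zrsr1 and Commd1, at -1.53, -0.47 and -0.45. On chromosome 6, Ppp1r9a was higher (1.08 ± 0.23) and Mest, expressed from the paternal copy, was lower in the line with 3 copies, at 1.88 and 2.00 in Ts6, 2.69 and 2.55 in Ts11 and 2.48 and 2.45 in WT (difference -0.67 ± 0.11, adjusted p = 0.017). Peg13 and Sfmbt2 were called lower outside both chromosomes. Of 29 germline and piRNA genes Tex101 and Fkbp6 were lower, and of 28 meiosis genes Msh5 and Mei1 were higher and Sycp2 and Meig1 lower. Among 25 genes of DNA methylation 1 was called, Apobec1. No call of these lists remained without each array, and without Ts6 replicate 1 none was left.

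Both gained chromosomes carry a Hox cluster. Of 12 genes tested in the Hoxa cluster with its neighbour Evx1, on chromosome 6, 3 were called higher, among them Hoxa10 and Hoxa4, and Evx1 was called lower. Hoxa10 was at -4.04 and -3.83 against -5.29 and -5.14, with WT above both at -3.03 and -2.84. None of 10 Hoxb genes of chromosome 11 was called (limma, 1 with an unadjusted p under 0.05), with differences from -0.63 to 0.65. The difference between the clusters was not tested, and on each chromosome as a whole 15.1% of genes were called higher (chromosome 6) and 10.3% lower (chromosome 11). Of 19 cancer genes on chromosome 6, 5 were called higher in Ts6, against 15.1% of all its genes, among them Rad52, Braf and Vhl. Braf, a kinase of the ERK pathway, was at 0.35 and 0.55 in Ts6 and -0.28 and -0.29 in Ts11. The differences of Rad52, Braf and Vhl were 1.04, 0.74 and 0.53. Of 21 cancer genes on chromosome 11, against 10.3% of all its genes, Axin2, Egfr, Rel and Brca1 were called lower, the last 3 by 0.64, 0.63 and 0.47 on the log2 scale. Each of these Hox and cancer gene calls was lost without at least 1 of the arrays, with adjusted p up to 0.25; 2 of the 5 chromosome 6 cancer genes remained without Ts6 replicate 2 and none without Ts6 replicate 1.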

How the data were processed

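The 4 arrays compared, and the other 6 of the series that enter the fit, are 1-colour Agilent mouse arrays placed on mm9. Per the file headers, the deposited intensity values are processed signals from Agilent Feature Extraction 10.7.3.1. Background was not subtracted, trends across the array were removed, and surrogates stand in for the dimmest signals. The authors' deposited series table holds log2 values of the same arrays, normalized in a way not given in the sources used here, and served as an alternative.

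Here the log2 signals were centred on the 75th percentile of their array and spots of a probe were averaged. Of 55681 probes, 176 with a flagged value were left out, and a probe was kept if some group had it well above background on 2 of 2 arrays (43055 probes). The brightest probe on average stood for its gene (28192 genes); of 510 called genes with several probes, 98 had a probe of opposite sign. Names were updated by RefSeq accession (26769 of 29060 probes with one matched, 2883 names changed), and coordinates are those of the probes. limma 3.58.1 in R 4.3.3 fitted 1 mean per group over all 10 arrays (5 residual and 2.67 prior degrees of freedom). No pair of arrays held identical values. Tables and figures used Python 3.11.15, pandas 2.3.3 and scipy 1.17.1, and the fit was tested on simulated data.

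The lines, the 37 lists of genes and the rule for naming were chosen with earlier results of these data known. Named genes were the 8 highest and 8 lowest called outside chromosomes 6 and 11, 6 and 3 on each of these in and against the direction of the extra copy (with a symbol, above background on all 4 arrays, lines not overlapping), the 4 largest bounds in each direction, up to 5 called members of a list, and 20 genes that define a list by function. The arrays of a group come from different passages, and p-values measure the spread between the 2 arrays of a group, pooled over 5 groups. Since the number of clones is not given, it cannot be told whether this is more than a spread between passages of 1 line. The number of arrays limits the precision. Some genes the naming rule selects are not reported here.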

Additional observations from a re-analysis of the deposited data

How the results depend on the processing

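The shifts of chromosomes 6 and 11 kept their direction under every alternative that was run. Of the counts of called genes (2051 in all, 241 on chromosome 6, 230 on chromosome 11 and 1580 outside), with no filter on dim probes they were 1160, 140, 120 and 900, with only the 4 arrays in the fit 543, 48, 43 and 452, and at 2-fold or more 777, 65, 67 and 645. On the left side of the array, with 14122 genes tested, the counts were 766, 100, 99 and 567. On the right side, with 14070 genes tested, they were 1345, 145, 128 and 1072. The difference between the sides was not tested. With slide 1 only, chromosomes 6 and 11 had 160 and 153 calls. Chromosome 11 had 153 with passage as a covariate and 371 in the authors' deposited table. Leaving out 1 array gave 274 to 876 calls in all, 19 to 92 on chromosome 6, 19 to 90 on chromosome 11 and 236 to 694 outside. With the replicate block 2187 genes were called. Replicate 1 arrays sat in slide row 1 and replicate 2 arrays in slide row 2. The correlation of the replicate differences of Ts6 and Ts11 was 0.04. Over the other pairs of groups it ran from -0.10 (WT and Ts11) to 0.39 (Ts8 and Ts11). No named gene changed sign with a call. The 149 named or family genes include some that were not called in the main fit and so had no call to lose. Of the rest, 28 lost the call with passage as a covariate, 42 with no filter and 78 with only the 4 arrays. Signal over background limits the dimmest genes.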

Other observations

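Of 4146 long intergenic noncoding RNAs tested, 140 (3.38%) were higher and 92 (2.22%) lower in Ts6, against 3.86% and 3.71% of the other genes; the difference of these shares was not tested. A pair of transcript models of the same interval of chromosome 15, given on opposite strands, were low in Ts6. The probe at chr15:96990631-96990690 was at -0.63 and -0.75 in Ts6, 1.76 and 1.56 in Ts11 and 0.63 and 1.01 in WT, and the probe at chr15:96991770-96991829 at 0.85 and 0.82, 2.84 and 2.63, and 1.77 and 2.09. On both, Ts6 was below and Ts11 above the diploid level. These were chosen after their values were seen.

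Among the 1580 called genes outside chromosomes 6 and 11, either line could be the one farther from the diploid level. Ts6 was farther for 59.3% of the 823 called higher in Ts6 and for 51.8% of the 757 called lower. The WT mean lay between both lines for 523 and 428 of them.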
